A study of Mus musculus with 8 samples.

Results

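The cells described here are neutrophils that carried little or no secondary granule transcript, recovered from the brains of mice with and without intestinal inflammation. They were chosen by a gate on transcript counts. S100a8 plus S100a9 made up at least 2% of a cell's UMIs (unique molecular identifiers, each standing for 1 captured transcript), at least 1 UMI came from Csf3r, and Camp, Ltf and Ngp together made up less than 1%. Elane, Mpo and Prtn3 together made up less than 1%, and no UMI of C1qa was present. Of 46314 cells with a single hashtag in all 8 libraries, 791 met the gate, which is 1.71% (95% exact Clopper-Pearson interval 1.59 to 1.83). Another 1574 cells met every condition but had 1% or more of Camp, Ltf and Ngp, and these are called immature neutrophils below.

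The libraries came from CD45.2-positive cells sorted from perfused brain of C57BL/6J (WT) mice and of APPNL-G-F mice. In the latter, the mouse App gene is replaced by a knock-in with a humanised amyloid-beta sequence and familial Alzheimer's disease mutations under its own promoter. The mice were 16 weeks old per the labels and younger per the study's methods, and each genotype had 1 library for each of 4 treatments. Control mice drank water, acute colitis mice drank 2% dextran sulphate sodium (DSS) for 1 week, chronic colitis mice had 3 cycles of 2% DSS and then water, each for 5 days, and food allergy mice were sensitised to and fed ovalbumin. Samples were marked with hashtag antibodies and pooled, which left 30 hashtag groups with 3 or 4 in each library. The hashtag groups were not tied to single mice by the labels. For APP acute colitis the study names more mice than there are hashtag groups, and for APP chronic colitis fewer. If the latter count is right, some groups share an animal. P-values over hashtag groups measure only the spread between these groups and are then too small, and the effect of a library cannot be told apart from that of its condition. An antibody against CD45 was injected intravenously before perfusion to mark cells inside vessels, which leaves no trace in these counts.

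Neutrophils are short-lived granulocytes that arise in bone marrow. As they mature, they make azurophil granules first, then secondary granules with lactoferrin and cathelicidin, then gelatinase granules, and they end transcription of most granule genes before they leave the marrow. Circulating neutrophils respond to G-CSF through Csf3r, move toward CXC chemokines through Cxcr2, and when stimulated transcribe cytokines such as Il1b within a short time.

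The markers of these cells fit neutrophils, while their contrast with B cells does not show the stage. In cells thinned to 500 UMIs, Retnlg, a resistin-like protein of neutrophils, was found in 93.2% of the mature cells and 1.30% of B cells, whose median depths were 3073 and 2499 UMIs (95.9% and 2.89% unthinned). G0s2, an inhibitor of triglyceride lipase, was found in 42.4% against 0.515%, and Trem1, a receptor that amplifies inflammatory signals, in 37.5% against 0.214%. Thinned immature neutrophils had Retnlg in 82.05%, G0s2 in 33.7% and Trem1 in 14.2%. Unthinned, G0s2 was found in 65.1% of mature cells and 80.6% of the deeper immature cells. Retnlg, G0s2 and Trem1 are among the markers by which these cells were named, so they are no independent check. Csf3r was demanded by the gate and is no check of it. Retnlg ranked 3rd among all transcripts of these cells, behind S100a9 and S100a8, at 32060 CPM (summed UMIs scaled to an equal total). Several markers of other cells were sparse, but not all. Ly6c2, which monocytes also carry, was found in 24.1% of the thinned mature cells and 47.3% of the immature (58.7% and 97.6% unthinned). Other monocyte markers were lower in thinned mature cells, with Csf1r at 2.81%, Ms4a6c at 1.64% and F13a1 at 1.66%. Csf1r was found in 15.2% unthinned. Cd74 was found in 8.05% and Apoe in 2.97% (15.4% and 9.99% unthinned). Cd79a was found in 1.95% of the thinned mature cells, Cd3e in 0.920%, Flt3 in 0.174%, C1qb in 0.214% and Mcpt8 in 0 of 791 cells, where 3 counts would be 0.379%.

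The name of the gate refers to shares and not to absence. Ngp, a neutrophilic granule protein, still had a UMI in 54.5% of the mature cells before thinning against 6.099% of B cells. Camp and Ltf had one in 22.8% and 12.1%, against 3.45% and 2.02% of B cells. Of the 791 cells, 342 had no UMI of any of the 3 genes and 707 had none of Elane, Mpo or Prtn3. Close to the boundary, 58 cells inside and 48 outside lay within 25% of the secondary granule limit, and the nearest were at 0.998% and 1.01%. For S100a8 plus S100a9 the median was 20.9% of UMIs, and 10 cells lay within 25% of that limit. The limit on Csf3r was met by exactly 1 UMI in 331 cells.

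The 8 libraries differed in depth and in free RNA. They held 23358325 to 46626411 gene UMIs in cells. S100a8 and S100a9 made up 0.607% to 7.96% of UMIs in barcodes of 10 UMIs or fewer, highest in APP acute colitis. Mature neutrophils had a median of 3073 UMIs and immature ones 10481, and the median of the mature cells ran from 1628 (WT acute) to 5865 (WT control). Over all cells, 1278 of 45004 barcodes were shared between libraries. Among the 790 barcodes of mature cells, 1 belonged to mature cells of different libraries. The latter count leaves out mature cells whose barcode is another kind of cell elsewhere, so these counts cannot be compared. A UMI of Cd79a, Ms4a1, Cd3e, Cd3g, Ncr1, Flt3 or Siglech was present in 78 mature cells (9.86%) and 143 immature cells (9.09%).

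Mature neutrophils made up a larger share of cells in the food allergy libraries than in controls. Among WT libraries the control had 0.622% (42 cells) and the food allergy library 3.84% (176), with acute colitis at 1.94% (87) and chronic colitis at 2.18% (116) between them. Among APPNL-G-F libraries the control had 0.701% (47 cells), food allergy 2.80% (181), chronic colitis 1.93% (111) and acute colitis 0.493% (31), the lowest of all 8. The exact 95% intervals of control and food allergy were apart in both genotypes, at 0.449 to 0.841% and 3.30 to 4.44% in WT and at 0.516 to 0.932% and 2.42 to 3.24% in APPNL-G-F. They cover counting error only. The rule of a single hashtag dropped 25.3% of all WT food allergy cells but 8.81% of its gated mature cells. In WT control it dropped 5.86% and 4.55%. Before that rule, 193 of 6136 WT food allergy cells and 44 of 7167 WT control cells met the gate.

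Hashtag groups of 1 library spread widely. In WT control the 4 groups ranged from 0.0485% to 1.22%, in WT chronic colitis from 0% to 3.02%, and in WT food allergy the 3 groups were at 0.225%, 3.79% and 4.58%. In WT acute colitis 2 groups were at 1.71% and 2.44% and the others at 0 of 108 and 0 of 54 cells, which allow up to 2.78% and 5.56%. The APPNL-G-F control groups were the closest together, at 0.700% ± 0.199 (SD, n = 4). The groups of control and food allergy overlapped. Permuted exactly within genotype, the mean over hashtag groups was 2.14 percentage points higher in food allergy than in control (two-sided exact permutation p = 0.00571, adjusted over 8 tests 0.0457). That call was lost in 4 of 6 tested alternatives to the gate and cell filters, and on leaving out any 1 of 13 of the 30 hashtag groups (1.71 to 2.25 points, exact permutation p adjusted 0.0686 to 0.137). The other differences did not pass, at 0.863 points for chronic colitis (exact permutation p = 0.128), 0.177 points for acute colitis (exact permutation p = 0.628) and 0.132 points for APPNL-G-F minus WT (exact permutation p = 0.773). Groups counted equally in these means, whatever their number of cells. WT means were 1.04% (acute), 0.995% (chronic) and 2.865% (food allergy), below the library shares of 1.94%, 2.18% and 3.84%. APPNL-G-F means were 0.597%, 2.01% and 2.70%, against library shares of 0.493%, 1.93% and 2.80%.

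**Figure D1:**
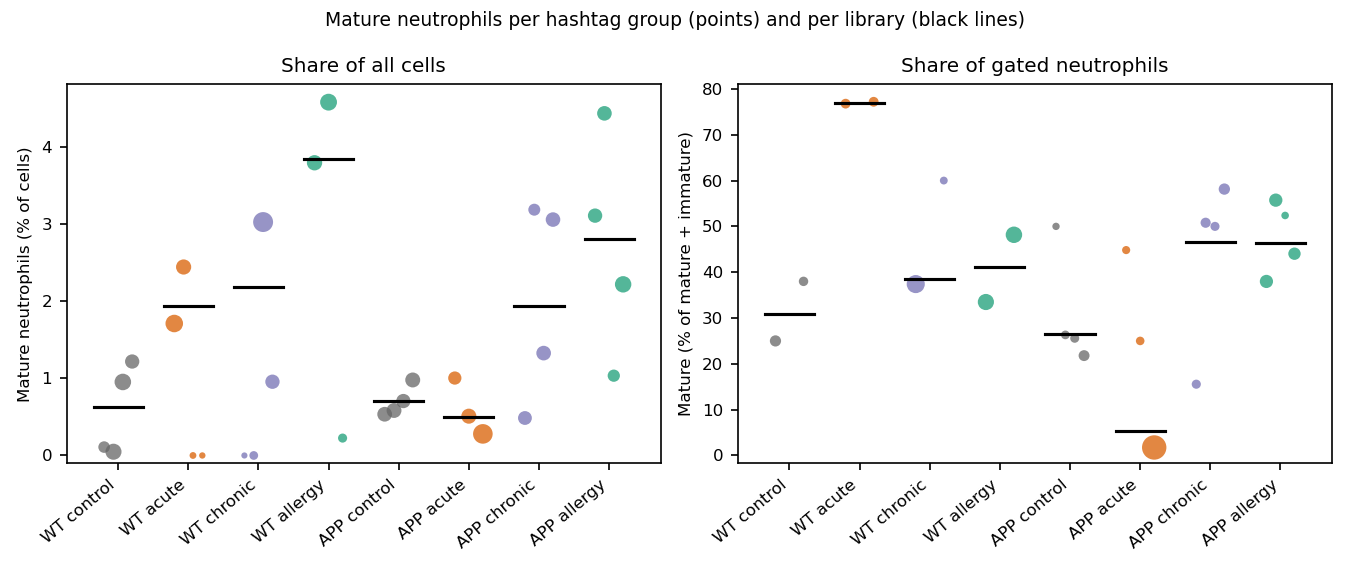
Mature neutrophils as a percentage of all cells (left) and of mature plus immature neutrophils (right) by condition. Each point is a hashtag group, with an area that grows with its number of cells or gated neutrophils, and black lines are the whole libraries. Food allergy libraries sit at 3.84% and 2.80% of cells against 0.622% and 0.701% in controls, and APP acute colitis has the lowest mature share of neutrophils, at 5.34%.

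The balance between mature and immature neutrophils was widest apart in the acute colitis libraries. Mature cells were 77.0% of gated neutrophils in WT acute colitis (95% interval 68.1 to 84.4, 113 neutrophils) and 5.34% in APP acute colitis (3.65 to 7.49, 581 neutrophils). The other 6 libraries lay between 26.6% (APP control) and 46.6% (APP chronic colitis). One hashtag group, number 7, held 507 of the 550 immature neutrophils of the APP acute library and 9 of its 31 mature ones. Its mature share was 1.74%, whereas the other groups of that library were at 25% and 44.8%. In WT acute colitis the groups were at 76.8% and 77.2%. As unweighted means over hashtag groups, and not as library shares, the acute colitis effect, control subtracted, was 45.5 points in WT. In APPNL-G-F it was -7.07 points, from means of 23.9% and 30.9%. The difference of -52.6 points was not past the threshold (exact permutation p = 0.1, adjusted over 6 such tests 0.6). Treatment was permuted within genotype, with 2 WT groups on each side. That p therefore tests for no acute effect in either genotype and not for equal effects. Across both genotypes the mean over hashtag groups was 12.97 points higher in food allergy than in control (exact permutation p = 0.0476, adjusted 0.190), and no contrast of this share passed after adjustment.

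Mature and immature cells of the same libraries were then compared gene by gene. Counts were summed per library and kind of cell, the 10 gate genes were removed before library sizes were set, and edgeR's quasi-likelihood test was run with the library as a block. The gate chose the cells by their stage of maturation, so genes of the granule programme that it read are mostly described below without a test. Those among the largest falls were picked by the test. Of 4827 genes tested, 824 were higher in mature cells (17.1%) and 691 lower (14.3%) at an adjusted p of 0.05 or less. The median log2 fold change over all genes was -0.000501. Standard errors are the fold change divided by the square root of F, and CPM values are over all gene UMIs. Immature cells were deeper, and the part of depth in the calls was not tested.

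Among the markers of mature neutrophils, 10 of the 11 tested rose and none fell, with a median log2 fold change of 0.896. Over the 8 libraries Retnlg was at 18860 CPM at the lowest, 32110 at the median and 42280 at the highest in mature cells, and at 8668, 14980 and 16770 CPM in immature cells. The 2 kinds of cell did not overlap (log2 fold change 0.90 ± 0.13 SE, edgeR adjusted p = 7.03e-05). Clec4d, a lectin receptor for fungal and mycobacterial glycolipids, showed the largest rise of this list (2.46 ± 0.18). G0s2 was higher in the mature cells of all 8 libraries, at a median of 1987 against 1655 CPM, but did not pass (0.31 ± 0.17, edgeR adjusted p = 0.184).

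Receptors that guide neutrophils split. Of the 9 chemoattractant receptors tested, 5 rose and 1 fell. Cxcr2, the receptor for CXCL1 and CXCL2, was at 421 to 791 CPM (median 564) in mature and 81.2 to 435 CPM (median 243) in immature cells, so the 2 ranges overlapped slightly (0.95 ± 0.20, edgeR adjusted p = 0.0019). Cxcr4, which holds neutrophils in the marrow and rises again as they age, was low in both, at medians of 59.7 and 26.4 CPM (0.89 ± 0.23, edgeR adjusted p = 0.0077). Ccrl2, an atypical receptor that presents chemerin, rose by 2.71 ± 0.36 on the log2 scale. Ltb4r1, the receptor for leukotriene B4, fell in all 8 libraries, from a median of 434 to 176 CPM (-1.56 ± 0.19). Lta4h, the enzyme that makes leukotriene B4, fell from a median of 362 CPM to 38.2 CPM without overlap (-3.45 ± 0.19, edgeR adjusted p = 9.77e-09).

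Secreted cytokines and chemokines were higher in mature cells. Of the 12 tested 9 rose and none fell, and the median log2 fold change was 1.98. Il1b, the precursor of interleukin-1 beta, stood in the mature cells of WT mice at 5301 CPM (control), 13610 CPM (acute colitis), 4909 CPM (chronic colitis) and 8368 CPM (food allergy). Those of APPNL-G-F mice had 2422 CPM (control), 1773 CPM (acute colitis), 4257 CPM (chronic colitis) and 5614 CPM (food allergy). Immature cells reached 1465 CPM at most, below every mature library (3.33 ± 0.43, edgeR adjusted p = 2.47e-05). In cells thinned to 500 UMIs, Il1b was found in 72.0% of mature, 13.7% of immature and 0.763% of B cells (83.4%, 27.6% and 1.92% unthinned).

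Cxcl2, the main CXCR2 ligand that mouse neutrophils make, ran from 2612 to 15340 CPM (median 5219) in mature and from 30.3 to 3145 CPM (median 1424) in immature cells (2.27 ± 0.40, edgeR adjusted p = 0.000401). Cxcl3, its neighbour on chromosome 5, was low, at a median of 30.7 against 5.68 CPM, and rose by 2.91 ± 0.47. Ccl6, a chemokine of myeloid cells, had the smallest p of all genes tested and no overlap, with medians of 1604 and 141 CPM (3.34 ± 0.15, edgeR adjusted p = 1.53e-09). Ccl3 and Ccl4, CC chemokines of activated myeloid cells, rose by 1.78 ± 0.49 and 2.17 ± 0.36. Il1rn, the natural antagonist of interleukin-1, rose by 1.25 ± 0.18. Ptgs2, the inducible cyclooxygenase, rose by 2.69 ± 0.28. Tnf did not pass, at medians of 62.8 and 71.4 CPM (-0.02 ± 0.25, edgeR adjusted p = 0.965), and Osm gave 0.62 ± 0.23 (edgeR adjusted p = 0.0501).

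The promoters of Cxcl2 and Cxcl3 are shown because these neighbouring genes rose together and both hold the NF-kB type motif GGGNNTTTCC within the 200 bases from 250 to 51 before their start. The sequences are RefSeq's on GRCm38.p6, plus strand, chr5:90903649-90903848 for Cxcl2 and chr5:90785851-90786050 for Cxcl3, with the motif in capitals.
Cxcl2: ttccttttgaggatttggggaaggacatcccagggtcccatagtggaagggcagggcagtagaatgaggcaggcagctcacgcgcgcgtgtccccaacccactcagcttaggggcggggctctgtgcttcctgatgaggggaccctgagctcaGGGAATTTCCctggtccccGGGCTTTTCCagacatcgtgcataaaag
Cxcl3: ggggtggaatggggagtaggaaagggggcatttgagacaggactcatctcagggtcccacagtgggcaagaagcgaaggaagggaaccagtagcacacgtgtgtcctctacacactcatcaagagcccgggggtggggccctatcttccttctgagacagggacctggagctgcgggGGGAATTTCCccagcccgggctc
The site GGGAATTTCC occurs in both, 97 bases before the start of Cxcl2 and 73 before that of Cxcl3, and Cxcl2 has a further GGGCTTTTCC 78 bases before its start. Over both strands, 346 of 32851 promoter windows of the same length hold the motif (1.05%). Of the 15 genes on the cytokine list 12 have a promoter in the table, and Cxcl2, Cxcl3 and Csf1 hold it, while Il1b has no match in its window. Of the 10 genes with the largest rise, Cxcl3 and Steap4 hold it. A match describes the letters and says nothing of binding in these cells.

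Genes that answer a stimulus early rose with the cytokines. Of 10 immediate-early genes, which cells switch on within minutes, 6 rose and none fell (median log2 fold change 1.12). Dusp1, a phosphatase that shuts off MAP kinases, was at medians of 2023 and 538 CPM without overlap (2.16 ± 0.18, edgeR adjusted p = 4.4e-07). Junb and Btg2 rose by 1.26 ± 0.20 and 1.61 ± 0.20, also without overlap. Fos was higher in mature cells of all 8 libraries but did not pass (0.78 ± 0.33, edgeR adjusted p = 0.0892), and neither did Jun (0.26 ± 0.19), Ier2 (0.16 ± 0.12) or Nr4a1 (0.31 ± 0.36). Of 9 NF-kB feedback genes 8 rose, among them Nfkbia, the inhibitor that holds NF-kB in the cytoplasm (0.97 ± 0.18), and Tnfaip3, which ends its signalling (1.36 ± 0.25).

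Of 10 genes of microbial sensing 9 rose. Nlrp3, the sensor of the inflammasome that cleaves pro-interleukin-1 beta, was at a median of 248 CPM in mature and 34.6 CPM in immature cells and did not overlap (2.89 ± 0.31, edgeR adjusted p = 4.71e-06). Tlr2, which senses bacterial lipoproteins, rose by 1.37 ± 0.16. Of 8 interferon-stimulated genes tested 5 rose, with Isg15 at medians of 160 and 35.9 CPM (1.78 ± 0.24) and Oasl2 at 101 and 16.8 CPM (2.33 ± 0.18). Without the WT or the APP food allergy library 3 of 7 rose. The 17 measured interferon-stimulated genes made up 0.255% of UMIs in the median mature cell, and at least 1% in 22 of 791 cells. Of the survival list 5 of 8 rose, among them Mcl1, on which neutrophil survival depends (0.96 ± 0.14), Bcl2l1 (1.09 ± 0.23) and the death receptor Fas (1.39 ± 0.17).

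**Figure D2:**
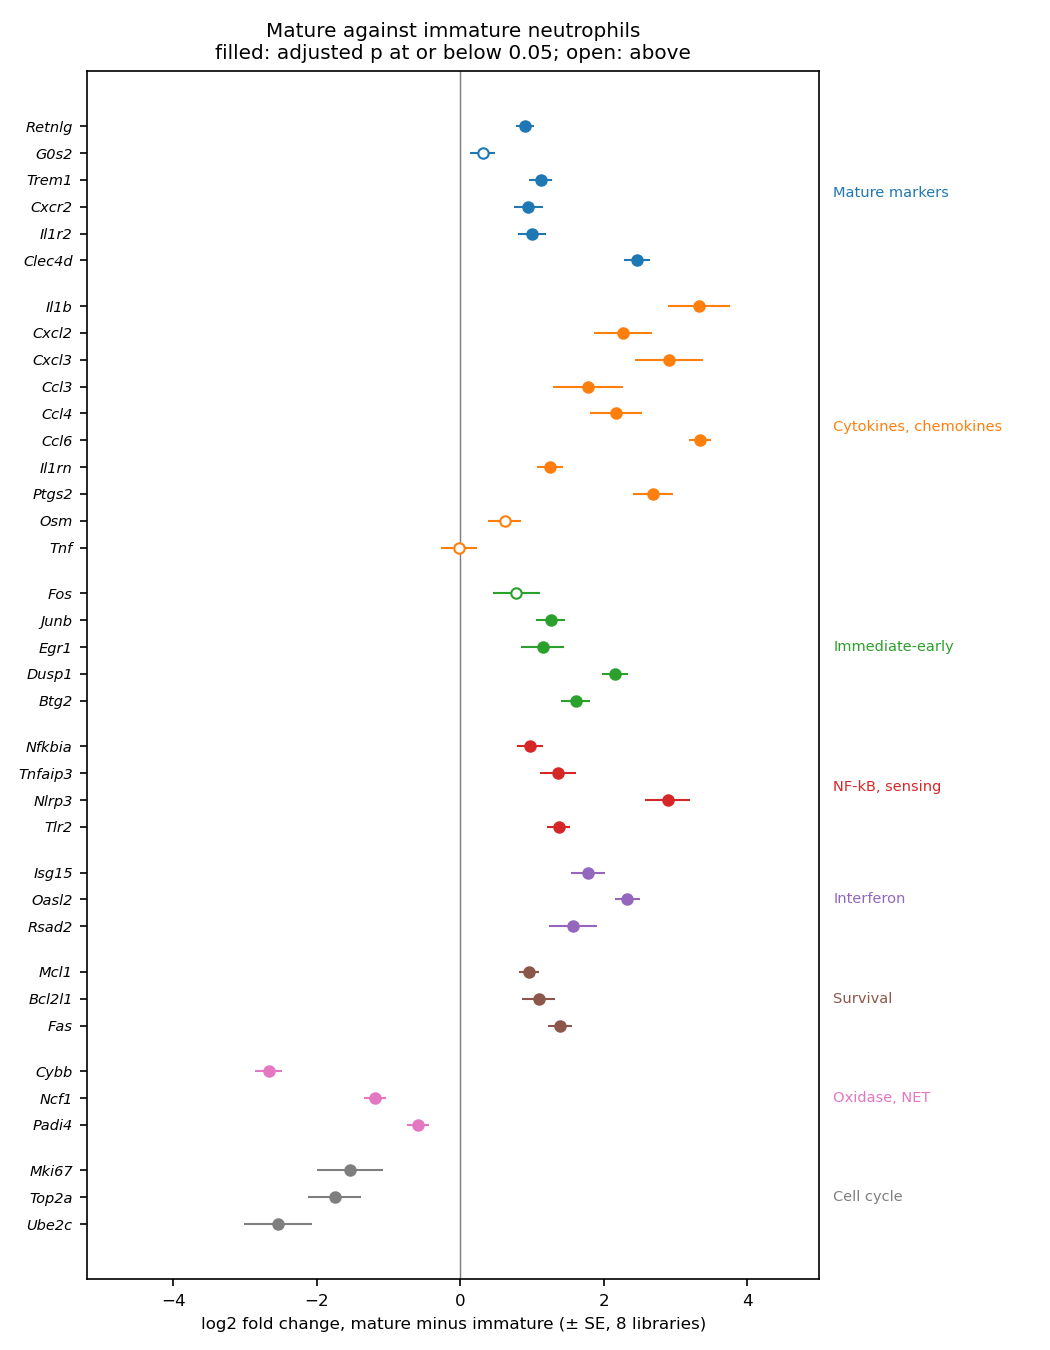
Log2 fold change of named genes, mature minus immature neutrophils, with the standard error from edgeR over 8 libraries. Filled points passed the adjusted threshold of 0.05 and open points did not. Il1b and Ccl6 stand near 3.3, most immediate-early and NF-kB genes near 1, and Cybb at -2.67.

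Transcripts of the machinery for killing were lower in mature cells for several subunits, and protein was not measured. Of the 7 NADPH oxidase and NET genes 5 fell and none rose (1 rose without APP acute colitis). Cybb, the catalytic subunit of the oxidase, was at 63.8 to 321 CPM (median 139) in mature and 779 to 1035 CPM (median 810) in immature cells (-2.67 ± 0.19, edgeR adjusted p = 1.09e-07). Ncf1, a cytosolic organiser of the oxidase, fell by 1.19 on the log2 scale (SE 0.15), and Padi4, the histone deiminase of extracellular traps, by 0.59 (SE 0.15). Of 12 cell-cycle genes 7 fell and none rose, while 12 fell without the APP acute colitis library and 5 to 7 without any other. Mki67 was at 0 to 128 CPM in mature and 30.5 to 174 CPM in immature cells (-1.54 ± 0.46, edgeR adjusted p = 0.0174). Its call was lost without the WT control, WT food allergy or APP food allergy library (edgeR adjusted p 0.0545, 0.0778 and 0.0631), and without APP acute colitis it was 0.00035.

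Members of the adhesion list moved in both directions, with 5 up and 3 down of 8. Selplg, the selectin ligand PSGL-1, rose by 1.25 ± 0.20. Itgam and Itgb2, the 2 chains of the integrin Mac-1, fell by 0.83 (SE 0.14) and 0.53 (SE 0.13), and Ceacam1 fell by 2.36 (SE 0.19). Among sugar metabolism genes 3 rose and 3 fell of 13, with Hif1a, the oxygen-sensing transcription factor, at 1.42 ± 0.14 and Ldha, lactate dehydrogenase, at -0.92 ± 0.17. Cebpb, the factor of emergency granulopoiesis, rose from a median of 1843 to 4166 CPM (1.22 ± 0.15, edgeR adjusted p = 1.32e-05).

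Secondary granule genes and those that go with them are given as a description, since the gate read 3 of them. Of the secondary granule list, Lcn2 (lipocalin 2, which binds bacterial siderophores) was at 2480 to 14970 CPM in mature and 16250 to 31690 CPM in immature cells. Cd177 had medians of 642 and 1739 CPM, Olfm4 of 35.1 and 317 CPM, and Lyz2 of 4545 and 9450 CPM. Cebpe, the transcription factor that drives secondary granule genes, was at 5.42 to 33.1 CPM against 153 to 279 CPM. Mmp8, the neutrophil collagenase, was at 1763 against 1320 CPM at the median, and Ly6g at 908 against 995 CPM. The ranges of both overlapped. Mmp9, the gelatinase of tertiary granules, had medians of 1103 and 1141 CPM.

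Called genes of at least 20 CPM on average were ranked by fold change, with predicted and antigen receptor genes left out. The 10 largest rises were Atf3 (3.44), Ccl6, Il1b, Sirpb1b (3.23), Jaml (3.21), H2-Q10 (3.09), Steap4 (3.08), Wfdc17 (2.92), Cxcl3 and Nlrp3. Atf3, a stress-induced repressor of cytokine genes, was at 70.5 to 1142 CPM in mature and 1.17 to 47.9 CPM in immature cells. Reads of Sirpb1b, H2-Q10 and Wfdc17 could be split with near-identical paralogs, so their values are uncertain. The 10 largest falls were Orm1 (-4.84), Tmem216 (-4.80), Fcnb (-4.53), Cebpe (-4.00), Zmpste24 (-3.96), Inhba (-3.62), Chil3 (-3.52), Lta4h (-3.45), Olfml2b (-3.27) and Lbp (-3.26). Fcnb, Cebpe and Chil3 go with the granule programme that the gate read, so the test is no independent evidence for their falls. Orm1, an acute-phase glycoprotein, was at 0 in at least 5 of the mature libraries and at 73.6 to 116 CPM in immature cells.

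Some markers of other cells moved with this comparison. Of 4 T and NK cell markers tested 2 rose and none fell (1 to 3 with a library left out), with Cd3g, a chain of the T cell receptor complex, at medians of 32.1 and 8.31 CPM (1.66 ± 0.38, edgeR adjusted p = 0.00307), while none of 3 B cell markers passed. Of 6 monocyte markers 3 rose and Ly6c2 fell (-0.82 ± 0.14). Csf1r was at a median of 44.4 against 9.20 CPM (2.10 ± 0.26) and gave 2.35 without cells that held a UMI of the 7 other lineage genes (edgeR or DESeq2 adjusted p 1.24e-11 to 0.000264 over its alternatives). None of these 7 is a monocyte marker, so that value cannot tell whether monocyte RNA or doublets carry the rise. Of 4 dendritic cell markers 3 rose (0 without APP food allergy, 1 without WT chronic colitis, WT food allergy or APP control, and 2 to 4 without any other library), with H2-Aa at 185 against 27.9 CPM (1.86 ± 0.61, edgeR adjusted p = 0.0311), and H2-Aa was not past the threshold in 8 of 18 alternatives. Leaving out WT chronic colitis, WT food allergy, APP control or APP food allergy was among these (edgeR adjusted p 0.052 to 0.146). Flt3, Siglech and Xcr1 each had a UMI in at most 1.01% of mature cells. The part of these cells or their RNA in the other results was not tested beyond leaving out cells with other lineage UMIs. Under that alternative 10 of 12 cytokine and 6 of 10 immediate-early genes rose.

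No gene passed the test between conditions within the mature cells. An additive edgeR fit of genotype and treatment on the 8 library sums, with 3 residual degrees of freedom and 3348 genes tested, called 0 genes (0%) in each of its 4 comparisons. At an unadjusted p under 0.05 it gave 104 genes for APPNL-G-F against WT, 116 for acute colitis, 95 for chronic colitis and 45 for food allergy. DESeq2 called 0, 0, 2 and 1, and edgeR on sums per hashtag group, which treats groups of 1 library as replicates, called 0, 92, 6 and 3. Il1b had a log2 fold change of -1.14 ± 0.46 in APPNL-G-F against WT (edgeR adjusted p = 0.996) and 1.08 ± 0.63 in food allergy against control (edgeR adjusted p = 1). Retnlg gave 0.04 ± 0.23 for genotype.

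Chil3, a chitinase-like protein of immature neutrophils and macrophages, followed the libraries unevenly. The 2 control libraries had 2150 CPM (WT) and 2797 CPM (APP), and APP acute colitis had 2241 CPM, whereas the other 5 libraries were at 30.3 to 180 CPM. In those 3 libraries 3 cells held 61.5%, 75.7% and 88.0% of its UMIs, and without them the levels were 911, 814 and 500 CPM. Without the 3 highest cells of each, the other 5 libraries were at 0 to 25.8 CPM. Its fold change was -5.51 ± 1.30 in food allergy and -4.40 ± 1.25 in chronic colitis, neither past the threshold (edgeR adjusted p = 1 and 0.9996). Haemoglobin led the genotype comparison. The 7 erythroid and platelet markers summed to 35990 CPM in the 10 cells of APP control hashtag 5, and Hbb-bs gave an edgeR adjusted p of 0.265. Over all libraries Hbb-bs had a UMI in 0.632% of the 791 mature cells and Hba-a1 in 0.379%, so few cells carried it.

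In 3 APPNL-G-F libraries, those of acute colitis, chronic colitis and food allergy, Il1b differed by a larger factor between hashtag groups than it did among the 8 libraries. In APP chronic colitis, Il1b was at 12830 and 8415 CPM in mature cells of hashtags 6 and 7 and at 264 and 23.8 CPM in hashtags 5 and 4. In APP food allergy it was at 8608 and 5251 CPM in hashtags 5 and 4 and at 852 and 262 CPM in hashtags 7 and 6. In APP control it was at 2985 and 2426 CPM in hashtags 7 and 6 and at 875 and 716 CPM in hashtags 4 and 5. In APP acute colitis it was at 8149 and 7095 CPM in hashtags 4 and 5, and 0 of the 119536 UMIs of hashtag 7 came from Il1b, where 3 counts would be 25.1 CPM. Hashtag 7 supplied 76.8% of the mature UMIs of that library with 9 cells, and without it Il1b was at 7631 CPM and not 1773. Retnlg was at 13850 CPM in hashtag 7 and at 44600 and 25900 CPM in hashtags 4 and 5. Precursor transcripts were high in the mature cells of that library, with Elane at 970 and Prtn3 at 1496 CPM. The other libraries reached at most 71.2 and 295 CPM (WT chronic colitis). Whether the cells of hashtag 7 were mature beyond meeting the gate was not tested. Every WT hashtag group with at least 10 mature cells was between 4083 and 14810 CPM.

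The 10 immediate-early genes separated the same hashtag groups. Summed, they were at 18490 and 22080 CPM in hashtags 6 and 7 of APP chronic colitis and at 2270 and 1427 CPM in hashtags 5 and 4. In APP food allergy they were at 13300 and 16940 CPM in hashtags 4 and 5 and at 2067 and 2842 CPM in hashtags 6 and 7. In APP acute colitis they were at 26890 and 32490 CPM in hashtags 4 and 5 and at 945 CPM in hashtag 7. In APP control they were at 10560 and 11950 CPM in hashtags 6 and 7 and at 3498 and 2104 CPM in hashtags 4 and 5. No such gap was seen among WT groups with at least 10 mature cells, which ran from 8817 to 28050 CPM.

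T cells of the same hashtag groups, which share the tissue preparation but not the lineage, showed the same gap. In APP chronic colitis their sum of these genes was 3934 and 3947 CPM in hashtags 6 and 7 and 727 and 814 CPM in hashtags 5 and 4. In APP food allergy it was 3568 and 3557 CPM in hashtags 4 and 5 and 519 and 853 CPM in hashtags 6 and 7. T cells of APP acute colitis were at 4703 and 3804 CPM in hashtags 4 and 5 and at 1052 CPM in hashtag 7, and those of APP control at 3090 and 4770 CPM in hashtags 6 and 7 and at 770 and 916 CPM in hashtags 4 and 5. The WT control hashtags 4 and 5, each with 1 mature neutrophil, had T cells at 1239 and 1029 CPM, against 5830 and 5684 CPM in hashtags 6 and 7. The APPNL-G-F sums of Il1b thus include hashtag groups below every WT group of at least 10 cells, and the part of this in the genotype fold change was not tested.

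**Figure D3:**
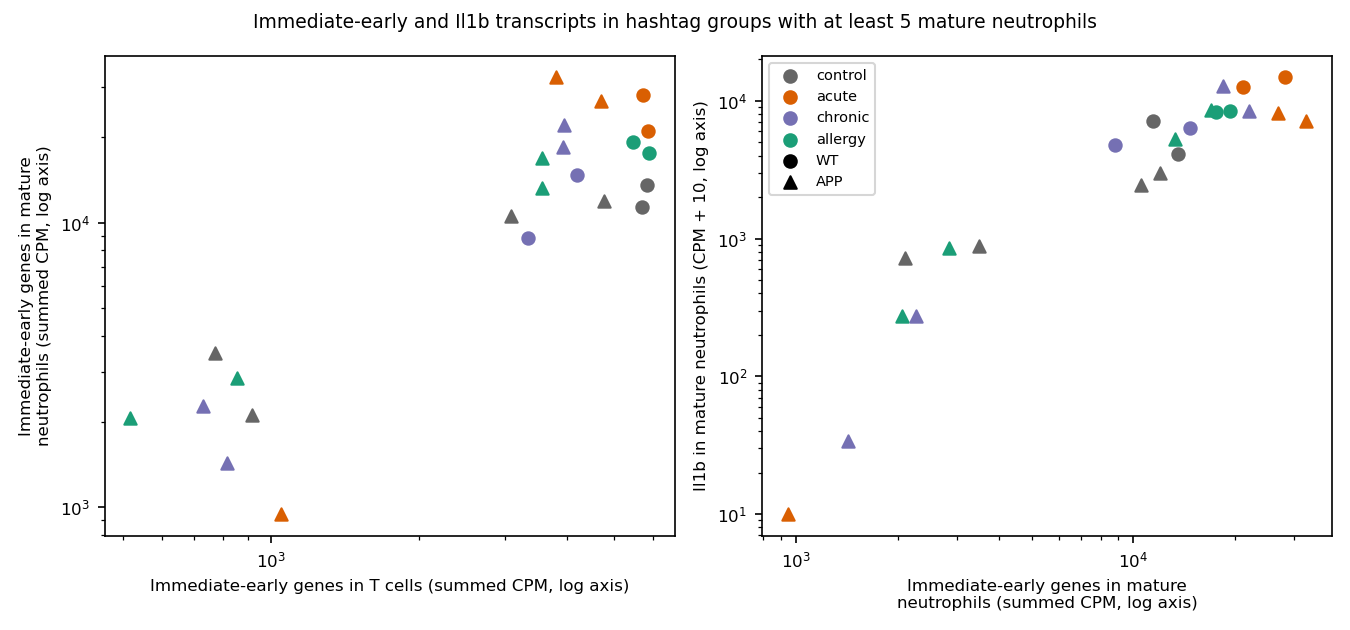
Left, summed CPM of 10 immediate-early genes in mature neutrophils against T cells of the same hashtag group. Right, Il1b (CPM + 10) against the immediate-early sum in mature neutrophils. Each point is 1 of the 23 hashtag groups with at least 5 mature neutrophils, all axes are logarithmic, circles are WT and triangles APPNL-G-F. A cluster of 7 triangles lies at the lower left of both panels, with T cell sums of 519 to 1052 CPM.

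The maturation markers were not alike in these hashtag groups. Retnlg was at 31100 and 39790 CPM in hashtags 6 and 7 of APP food allergy and at 40090 and 26550 CPM in hashtags 4 and 5. In APP chronic colitis it was at 47350 and 41610 CPM in hashtags 5 and 4 and at 28920 and 40110 CPM in hashtags 6 and 7. Cxcr2 in APP food allergy lay between 555 and 689 CPM in all 4 groups. G0s2 went with Il1b, at 98.4 and 444 CPM in hashtags 6 and 7 of APP food allergy and at 3343 and 2081 CPM in hashtags 4 and 5. Trem1 did so too, at 65.6 and 107 CPM against 983 and 1187 CPM. G0s2 and Trem1 are 2 of the 4 markers by which these cells are known.

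**Figure D4:**
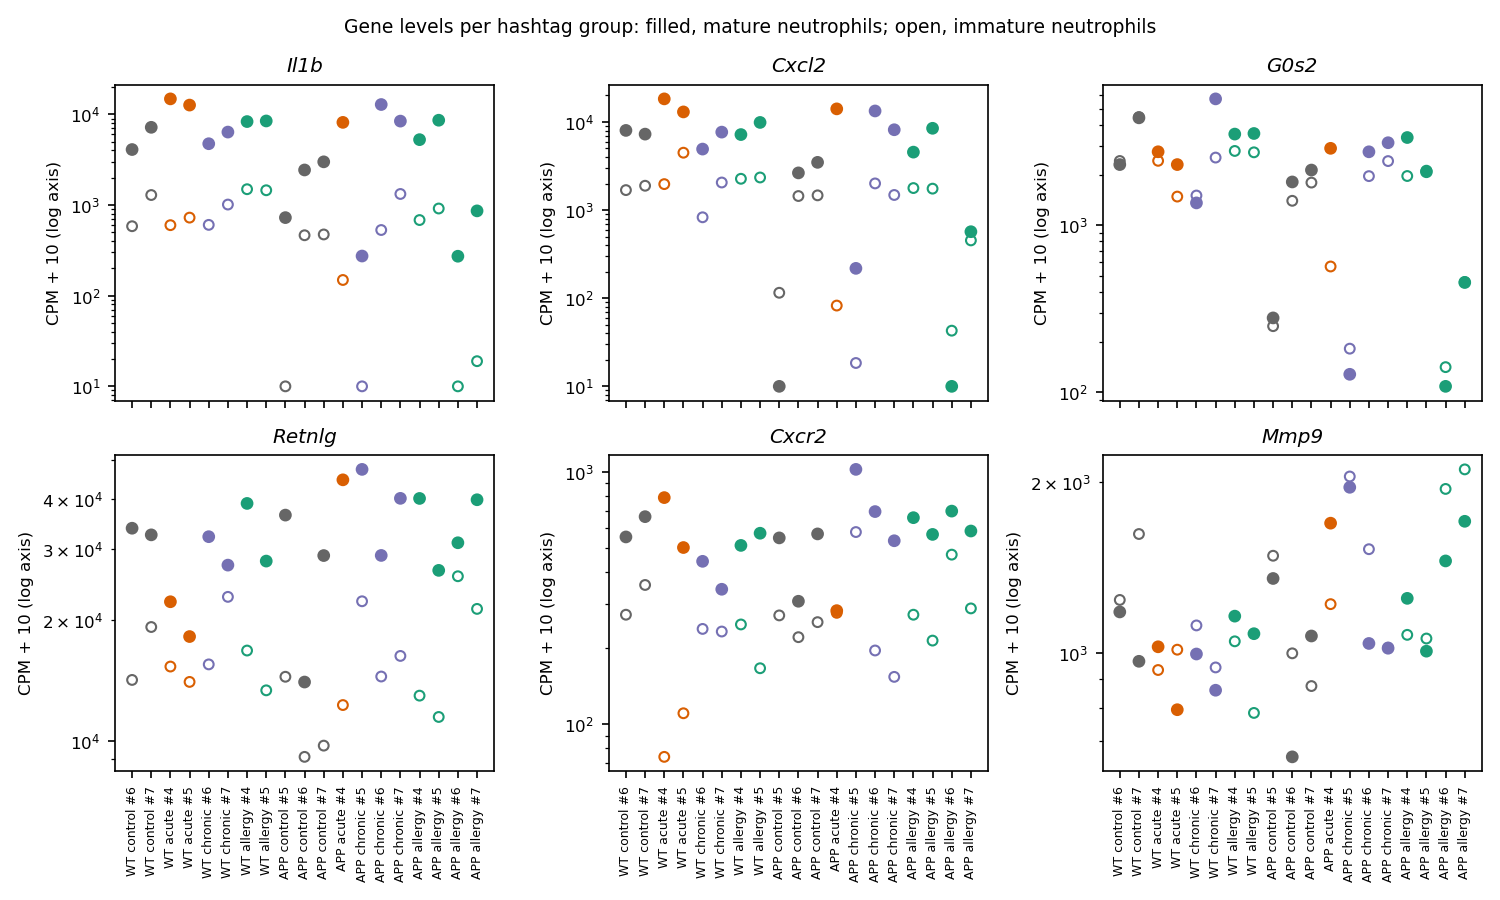
Levels of 6 genes (CPM + 10, logarithmic axes) in mature (filled) and immature (open) neutrophils of the 19 hashtag groups with at least 10 of each. Colours mark the treatment (grey control, orange acute colitis, purple chronic colitis, green food allergy). In 4 APP groups Il1b sits at 262 to 852 CPM in mature cells, and Cxcl2 and G0s2 are low there too, while Retnlg, Cxcr2 and Mmp9 are within the range of the other groups or above it.

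The comparison with immature cells was repeated within hashtag groups. With sums per hashtag group and the group as a block, 1424 genes were tested, 418 rose (29.4%) and 404 fell (28.4%). Il1b gave 3.22 (edgeR adjusted p = 2.06e-10) and Ccl6 3.42 (edgeR adjusted p = 1.03e-13). All 7 cytokine genes tested there rose. Fos then passed at 0.44 (edgeR adjusted p = 0.0315), whereas G0s2 did not (0.16, edgeR adjusted p = 0.327).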

How the data were processed

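Single-cell 5′ libraries (10x Genomics) were made from CD45.2-positive brain cells, 1 for each of 8 conditions. The deposited matrices hold raw UMI counts for every gene and barcode, unfiltered. The authors made them with Cell Ranger (6.1.2 per the labels, mm10, and Cell Ranger 4 per the matrix headers). Barcodes were kept with at least 500 gene UMIs and 200 genes, at most 5% mitochondrial UMIs, and a top hashtag count of at least 50 that was at least 3 times the second. This rule drops doublets between hashtags. No doublet caller was run, and doublets within a hashtag remain. CPM are summed UMIs scaled to an equal total of gene UMIs. Tests used edgeR 4.0.16 (TMM, filterByExpr, quasi-likelihood F, Benjamini-Hochberg) and DESeq2 as an alternative, after a check on simulated data, and exact two-sided permutation tests over hashtag groups of at least 30 cells, or at least 10 gated neutrophils. Gene lists were hand-written. Other named genes are the 10 largest rises and falls among called genes of at least 20 CPM on average. The cells, lists and tests were chosen with earlier results of these data known. Aldoa, Clec7a and Mx1 were not analysed here. Promoters came from RefSeq (GRCm38.p6) and were matched by symbol. Some genes of these lists are counted but not reported here by name.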

Additional observations from a re-analysis of the deposited data

Results flagged for a closer look

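One value stood apart among the 14 sets of 4 hashtag groups examined, where chance alone marks about 1 in 20. In APP control, mature cells were 50% of the gated neutrophils of hashtag 4 and between 21.8% and 26.3% in the other 3 groups. The gap to the nearest group was 0.840 of the range, above Dixon's value of 0.829 for 4 values. Hashtag 4 held 18 gated neutrophils, 9 of them mature.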

How the results depend on the processing

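The higher share of mature neutrophils in food allergy kept its direction in all alternatives. It lost the threshold at 1.78 points with Camp, Ltf and Ngp under 0.5%, at 3.63 points with no Csf3r requirement, at 2.01 points with a top hashtag at least 10 times the second and at 1.85 points without cells with other lineage UMIs. With 1 hashtag group left out it ran from 1.71 to 2.80 points. APPNL-G-F minus WT turned to -0.101 points with the stricter hashtag, -0.141 with at least 1000 UMIs and -0.662 on library sums, and ran from -0.198 to 0.346 with 1 group left out. Acute minus control ran from -0.0572 to 0.350 points in the same way. For mature against immature cells 822 genes were called with sums per hashtag group, with fewer genes tested, and 1156 to 1739 with 1 library left out. Without a filter on low counts 23 (APPNL-G-F), 24 (acute), 35 (chronic) and 15 genes (food allergy) were called. Sums per hashtag group gave 92 (acute), 6 (chronic) and 3 (food allergy), DESeq2 gave 2 (chronic) and 1 (food allergy), a limit of 5% on S100a8 plus S100a9 gave 2 and leaving out cells with other lineage UMIs gave 3 for APPNL-G-F. With 1 library left out the counts were 0 to 9, 0 to 1 and 0 to 9 for APPNL-G-F, acute and chronic colitis, highest without APP chronic colitis for genotype and without WT acute colitis for chronic colitis. The cause was not tested. Mmp8 turned positive at 0.20 (S100 limit of 5%), 0.07 (other lineage UMIs left out), 0.01 (1000 UMIs), 0.07 (no replicate block) and 0.02 (gate genes kept), and ran from -0.07 to 0.08 with a library left out. Tnf turned positive at 0.12 (S100 limit), 0.15 (Camp limit), 0.03 (stricter hashtag), 0.16 (other lineage), 0.20 (no replicate block) and 0.00 (gate genes kept), and ran from -0.21 to 0.18 with a library left out. Ier2 turned to -0.04 without a filter and -0.07 with no Csf3r requirement. No test has replicate libraries of 1 condition, and 31 to 181 mature cells per library limit all levels.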
